A study of Mus musculus with 10 samples.

Results

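Transcripts of *Dis3* and of 6 related genes for RNA exonucleases were examined in P4 mouse testes from control and *Dis3* cKO mice. The genes were chosen by name, namely *Dis3*, its paralogs *Dis3l* and *Dis3l2*, and *Eri1*, *Isg20l2*, *Rexo2* and *Pnpt1*, which makes 7 of the 54232 genes in the count table. All 7 passed the filter on low counts and were tested among 20043 genes. The question was whether any of the other 6 genes rose where *Dis3* fell.

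Both groups were mice at postnatal day 4, with 5 libraries of control testes, labelled *Dis3* WT, and 5 of *Dis3* cKO testes, labelled *Dis3* KO. The floxed *Dis3* line had been made in zygotes of B6D2F1 parents. According to the methods, a *Dis3* cKO male carried 1 deleted and 1 floxed *Dis3* allele together with *Ddx4*-Cre, which acts in germ cells, and the controls were siblings. Somatic cells of the testis therefore kept the floxed allele in *Dis3* cKO mice, and they too carried the deleted allele. Each library was made from the 2 testes of 1 mouse, so the groups differ by mouse and not by technical repeats.

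The DIS3 family consists of enzymes that degrade RNA one nucleotide at a time from the 3′ end. DIS3 is a catalytic subunit of the nuclear RNA exosome, whose ring of EXOSC proteins has no catalytic activity of its own in mammals, and it removes short-lived nuclear RNA such as the promoter upstream transcripts known as PROMPTs. DIS3L takes the same place in the cytoplasmic exosome, whereas DIS3L2 works without the exosome and prefers RNA that carries a 3′ tail of uridines. The other members come from separate families. ERI1 trims histone mRNA and 5.8S ribosomal RNA, ISG20L2 acts in ribosomal RNA maturation, REXO2 clears very short RNA fragments in mitochondria and cytoplasm, and PNPT1 is the mitochondrial polynucleotide phosphorylase.

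*Dis3* lies on the minus strand of chromosome 14 (GRCm38 chr14:99075206-99099770), and reads were counted over 7754 bases of its exons. Exons 4 to 6, which Cre removes, are coding and measure 74, 168 and 165 bases, or 407 bases together. They are the exons at chr14:99096757-99096830, chr14:99095173-99095340 and chr14:99091328-99091492 in GRCm38. Division of 407 by 3 leaves a remainder of 2, so their loss shifts the reading frame. The sequence of the removed segment and of the junction that its loss creates are shown because they define what the *Dis3* counts can and cannot see. They come from the canonical *Dis3* transcript of GENCODE M39, and read 5′ to 3′ on the transcript strand. In the junction the capitals mark the end of exon 3, and in the last line they mark the first stop codon in frame.
Dis3 exon 4: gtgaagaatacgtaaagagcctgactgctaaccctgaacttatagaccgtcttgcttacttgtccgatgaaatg
Dis3 exon 5: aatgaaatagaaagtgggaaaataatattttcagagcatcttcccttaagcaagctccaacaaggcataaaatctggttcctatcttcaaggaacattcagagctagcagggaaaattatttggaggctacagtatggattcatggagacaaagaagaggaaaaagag
Dis3 exon 6: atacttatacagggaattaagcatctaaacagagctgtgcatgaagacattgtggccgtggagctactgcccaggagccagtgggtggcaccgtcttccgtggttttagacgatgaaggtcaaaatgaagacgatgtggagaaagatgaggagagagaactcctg
exon 3 joined to exon 7: TACCAGCCTTCACGTcttaagactgctgta
first stop after the junction: gccttcacgtctTAAgactgctgtaagtga

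The stop codon begins 2 bases after the junction, and the reading frame then holds 194 codons in place of 958. The deleted exons make up 5.25% of the counted length of *Dis3*. A transcript that lacks them would still be counted over the rest of the gene, so the values below give the amount of *Dis3* RNA and not the amount that encodes the whole protein.

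The other members map to GRCm38 as follows. *Dis3l* is at chr9:64306756-64341288 and *Dis3l2* at chr1:86703808-87050095. *Eri1* is at chr8:35465253-35496196, *Isg20l2* at chr3:87930314-87940686, *Rexo2* at chr9:48468512-48480623 and *Pnpt1* at chr11:29130744-29161828. No member shares exonic bases with another gene on its own strand, and reads were counted by strand. On the opposite strand, 325 bases of *Dis3* exons overlap *Pibf1*, and 298 bases of *Isg20l2* exons, 10.3% of its counted length, overlap *Mettl25b*. The canonical transcripts of the 7 members have 0 stretches of 50 bases in common, so no read of that length matches more than 1 of them exactly. Stretches of 50 bases that also occur in a transcript of another gene, on either strand, made up 18.4% of *Dis3l*, 14.7% of *Isg20l2*, 6.82% of *Dis3*, 4.08% of *Pnpt1*, 1.19% of *Eri1* and 0% of *Dis3l2* and *Rexo2* in GENCODE M39. How the alignment treated reads from these stretches was not examined.

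Gene counts ranged from 35391042 to 41104912 per control library and from 28538849 to 37739906 per *Dis3* cKO library (exact permutation test, two-sided, p = 0.0397, n = 5 per group). Counts below were normalized by TMM and expressed at the mean library size. Libraries of replicates 1 to 3 differed from those of replicates 4 and 5, by a chi-square per degree of freedom of 28.5 to 43.5 in control and 24.8 to 38.1 in *Dis3* cKO. *Dis3* cKO replicate 1 also stood apart from replicates 2 and 3 (18.8 and 22.9, against 4.40 between these). Values are given within each set where a result differs between them. Summed markers of germ cells ranged from 22480 to 28270 normalized counts in control and from 14970 to 20490 in *Dis3* cKO (exact permutation test, p = 0.00794). Of 12 germ cell markers listed, 11 were tested, 6 were lower and 0 were higher by edgeR, and *Dppa3* had 0 counts in at least 1 library. The list was *Ddx4*, *Dazl*, *Dppa3*, *Mael*, *Tdrd1*, *Tdrd9*, *Taf7l*, *Sall4*, *Dnd1*, *Nanos3*, *Sohlh1* and *Rhox10*. The paper had already reported *Mael*, *Sohlh1* and *Rhox10* as lower in *Dis3* cKO testes, so the germ cell sum is not independent of that result. Endothelial markers were higher in sum, at 15190 to 20090 against 14240 to 16830 (exact permutation test, p = 0.0159), with 1 of 6 higher. Sums of the Sertoli, Leydig, peritubular myoid, stromal, macrophage and erythroid markers had p-values from 0.135 to 0.921 over all libraries, with 1 myoid marker higher and 1 Leydig marker lower. Within replicates 4 and 5, stromal markers had 177200 to 177300 in control and 374100 to 383700 in *Dis3* cKO, too few libraries for an exact test. In bulk RNA, fewer cells of a type and less RNA per cell cannot be told apart, and the part that the shift of germ cell markers has in any result below was not tested.

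*Dis3* fell to 32.5% of its control level, by nearly the same factor in both sets of libraries. In control, replicates 1 to 5 had 4115, 4296, 4314, 5161 and 5091 normalized counts of *Dis3*. In *Dis3* cKO, replicates 1 to 5 had 1385, 1372, 1362, 1641 and 1709. All 5 *Dis3* cKO libraries lay far below the lowest control library, and within each group replicates 4 and 5 were the highest. The log2 fold change was -1.62 ± 0.09 (SE, n = 5 per group), and the 95% confidence interval of the remaining level ran from 28.3% to 37.3% (edgeR's quasi-likelihood test, Benjamini-Hochberg adjusted p = 3.78e-07). Across all tested genes 698 were lower (3.48%), *Dis3* ranked 3 by p-value, and 20 genes had a more negative fold change. Within replicates 1 to 3 the log2 fold change was -1.63 ± 0.07, and within replicates 4 and 5 it was -1.61 ± 0.07. In these counts, *Dis3* RNA of somatic cells, of germ cells and of transcripts without exons 4 to 6 cannot be told apart.

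**Figure D1:**
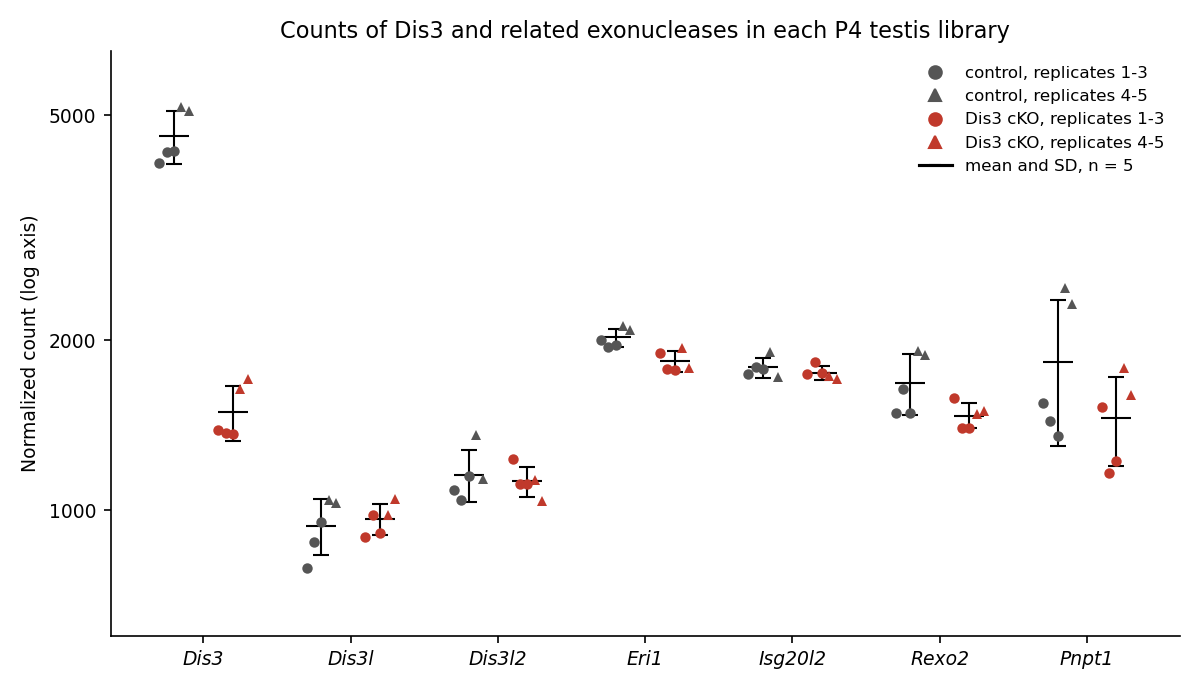
Normalized counts (log axis) of the 7 genes in each library, control in grey and *Dis3* cKO in red, replicates 1 to 3 as circles, replicates 4 and 5 as triangles, and the mean and SD of 5 libraries as black bars. *Dis3* drops from 4115 to 5161 down to 1362 to 1709, whereas the points of the other genes overlap between groups, except those of *Eri1*. For *Eri1* the margin is small, with 1946 in the lowest control library and 1937 in the highest *Dis3* cKO library.

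Neither paralog was called higher or lower. *Dis3l*, the cytoplasmic exosome nuclease, had 791, 878, 954, 1042 and 1032 normalized counts in control replicates 1 to 5. In *Dis3* cKO replicates 1 to 5 it had 897, 981, 912, 979 and 1049. The groups overlapped, and 1 *Dis3* cKO library lay above the highest control library. *Dis3l* had a log2 fold change of 0.04 ± 0.09 (SE, adjusted p = 0.85), with a 95% interval of the change from -10.02% to 17.0% of the control level. The spread of *Dis3l* in control was 11.3% of the mean (coefficient of variation), with control replicate 1 the lowest of all libraries.

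*Dis3l2*, the exosome-independent paralog, had 1087, 1042, 1151, 1360 and 1136 normalized counts in control replicates 1 to 5. In *Dis3* cKO replicates 1 to 5 it had 1231, 1112, 1111, 1132 and 1038. Control replicate 4 was the highest of all 10 libraries, and the remaining control libraries lay within the span of the *Dis3* cKO libraries. For *Dis3l2* the log2 fold change was -0.04 ± 0.08 (adjusted p = 0.83), and the 95% interval of the change ran from -13.9% to 10.1%. The direction of both paralogs differed between the sets of libraries. It was 0.09 and 0.07 on the log2 scale for *Dis3l* and *Dis3l2* within replicates 1 to 3, against -0.03 and -0.19 within replicates 4 and 5. None of these values passed the threshold, and the interaction of genotype with the set had adjusted p = 0.719 for *Dis3l* and 0.321 for *Dis3l2*. A rise of either paralog above the upper limits of 17.0% and 10.1% lies outside these intervals, while smaller rises were not detectable with this spread. These limits hold for RNA of the whole testis. A rise confined to germ cells, where Cre acts, would be diluted by somatic RNA and was not tested.

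Scaled to length, the summed level of the paralogs was nearly the same in both groups while that of *Dis3* fell. Levels were compared as RPKM, the normalized count per kilobase of counted exons and relative to library size. Counted exons measure 7754 bases for *Dis3*, 5458 for *Dis3l* and 8901 for *Dis3l2*, and the canonical transcripts 5150, 3787 and 3366. Levels of different genes, their sums and their ratios therefore depend on the length used. *Dis3* had 17.1 ± 1.83 RPKM in control and 5.55 ± 0.622 in *Dis3* cKO (mean ± SD, n = 5), a difference of -11.5 RPKM. *Dis3l* and *Dis3l2* together had 8.70 ± 0.884 RPKM in control and 8.73 ± 0.188 in *Dis3* cKO, a difference of 0.031 RPKM. The sum of the 3 genes was therefore 25.8 ± 2.65 RPKM in control and 14.3 ± 0.764 in *Dis3* cKO. *Dis3* made up 66.2% ± 1.04 of the sum in control and 38.8% ± 2.29 in *Dis3* cKO, with no overlap between libraries of the groups. The ratio of *Dis3* to *Dis3l* was between 3.18 and 3.66 in control libraries and between 0.985 and 1.18 in *Dis3* cKO libraries. On the counted length, both transcripts thus stood at about equal levels in *Dis3* cKO testes.

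**Figure D2:**
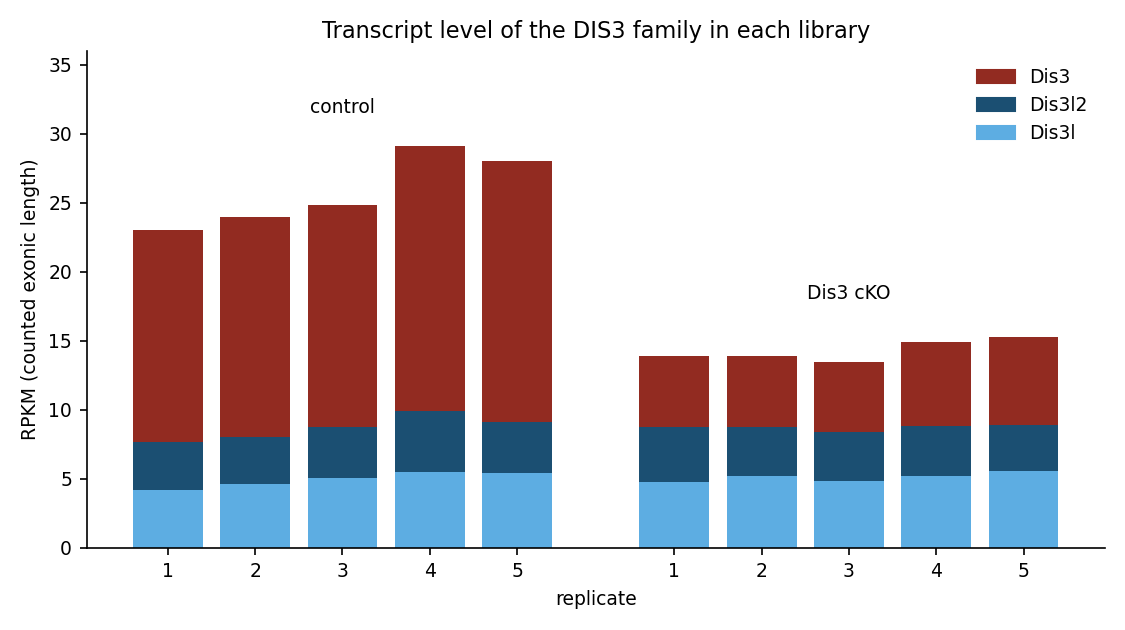
RPKM of *Dis3l*, *Dis3l2* and *Dis3*, stacked for each library. The blue segments of the paralogs sum to 7.70 to 9.91 RPKM in control and 8.42 to 8.90 in *Dis3* cKO, and the red *Dis3* segment carries the difference in height between the groups.

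Among the remaining nucleases, none was called higher or lower. By edgeR 0 of the 6 genes other than *Dis3* were called higher, against 4.42% of all tested genes, and 0 had a positive change at an unadjusted p under 0.05, against 11.8% of all tested genes. DESeq2 also called 0 of them in either direction. *Eri1*, the nuclease of histone mRNA ends, was the only one of the 6 whose groups did not overlap, as was the case for 863 tested genes lower in *Dis3* cKO (4.31%). No member was higher without overlap, against 4.59% of tested genes. It had 1998, 1946, 1963, 2115 and 2086 normalized counts in control replicates 1 to 5 and 1898, 1778, 1773, 1937 and 1787 in *Dis3* cKO replicates 1 to 5. Each *Dis3* cKO library thus lay below every control library by a small margin. Its log2 fold change was -0.14 ± 0.06 with a 95% interval from -0.27 to -0.01, and edgeR's unadjusted p of 0.0342 became 0.168 after adjustment.

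*Isg20l2*, which acts on ribosomal RNA, differed little between the groups. Its counts were 1743, 1794, 1777, 1908 and 1723 in control replicates 1 to 5 and 1739, 1828, 1748, 1731 and 1704 in *Dis3* cKO. The groups covered nearly the same span, with a log2 fold change of -0.03 ± 0.06 (95% interval from -0.16 to 0.09, adjusted p = 0.799).

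The nucleases known from mitochondria had the most negative values after *Dis3*, and neither was called over all 10 libraries. *Rexo2* had 1485, 1636, 1487, 1917 and 1881 normalized counts in control replicates 1 to 5, and 1577, 1399, 1399, 1480 and 1498 in *Dis3* cKO. Control replicates 4 and 5 stood above all other libraries. *Rexo2* had a log2 fold change of -0.19 ± 0.09 (unadjusted p = 0.0393, adjusted p = 0.182).

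*Pnpt1* had 1549, 1437, 1353, 2477 and 2321 normalized counts in control replicates 1 to 5, and 1522, 1165, 1222, 1786 and 1597 in *Dis3* cKO. In both groups replicates 4 and 5 were the highest, and the coefficient of variation in control was 29.0%. Over all libraries the log2 fold change was -0.33 ± 0.17 (95% interval from -0.70 to 0.05, adjusted p = 0.277), and it was -0.19 without control replicate 4 (adjusted p = 0.548). With the set of libraries as a further term in the edgeR fit it was -0.29 ± 0.09 and passed the threshold (adjusted p = 0.0325), as did 8.33% of tested genes in that direction.

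Within replicates 4 and 5 alone, both mitochondrial genes were lower in *Dis3* cKO. The log2 fold change was -0.34 ± 0.08 for *Rexo2* (adjusted p = 0.0039) and -0.50 ± 0.08 for *Pnpt1* (adjusted p = 1.6e-04), in a comparison of 2 libraries with 2 in which edgeR called 11.7% of genes lower. Within replicates 1 to 3 the values were -0.08 ± 0.08 and -0.15 ± 0.10, and neither passed. The difference between the sets was itself not past the threshold, with adjusted p = 0.227 for *Rexo2* and 0.226 for *Pnpt1*. Summed markers of cell types moved within replicates 4 and 5 too. Germ cell markers had 28020 to 28270 normalized counts in control and 14970 to 16280 in *Dis3* cKO, and myoid markers had 46800 to 47060 and 75880 to 76480. Stromal markers had 177200 to 177300 and 374100 to 383700. Between the sets, control libraries of replicates 1 to 3 had 22480 to 26430 for germ cell, 70520 to 75020 for myoid and 241600 to 270100 for stromal markers, and the Sertoli, Leydig and erythroid sums of control did not overlap between the sets either. The part of these shifts in the *Pnpt1* and *Rexo2* values was not tested.

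**Figure D3:**
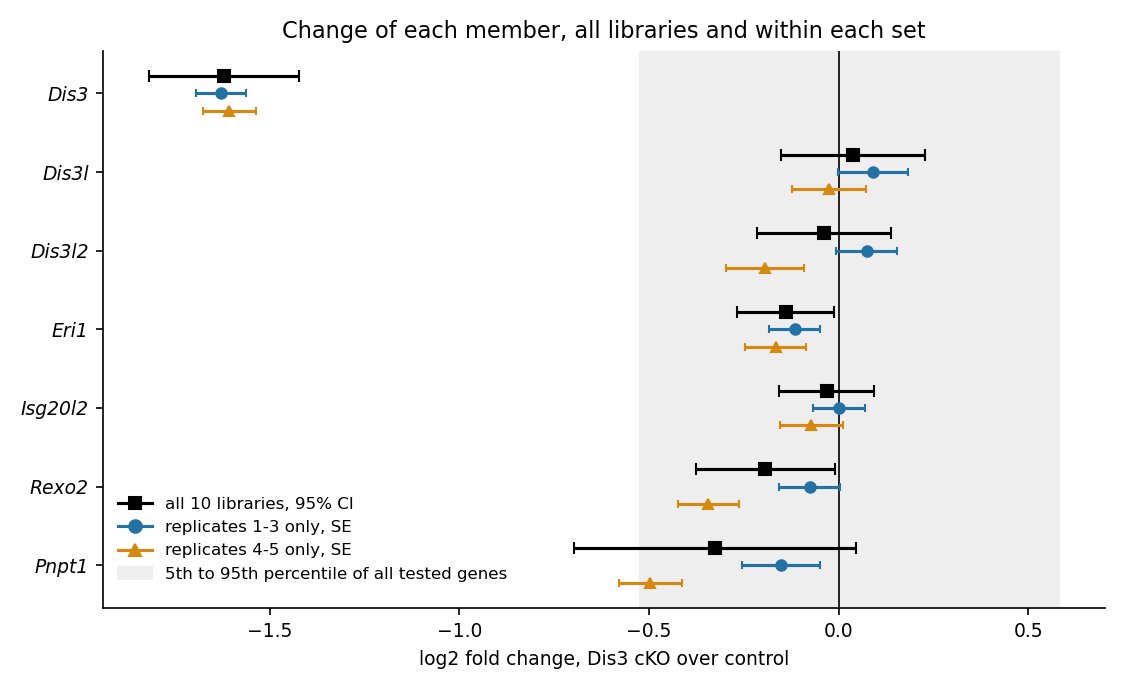
Log2 fold change of each gene, *Dis3* cKO over control, from all 10 libraries with the 95% confidence interval (black squares), and within replicates 1 to 3 (blue circles) and replicates 4 and 5 (orange triangles) with SE. The grey band holds the 5th to 95th percentile of all tested genes, from -0.52 to 0.58, and *Dis3* alone lies outside it.

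The order of the members by length-scaled level changed with the fall of *Dis3*. This order rests on the counted exonic length of each gene, and another choice of length could change it. In control, *Isg20l2* (17.8 ± 0.721 RPKM), *Dis3* (17.1 ± 1.83), *Pnpt1* (14.98 ± 4.34) and *Rexo2* (14.3 ± 1.77) formed the upper group, and each of these neighbours overlapped the next over the 5 libraries. *Eri1* followed at 6.57 ± 0.245 RPKM, below every library of *Rexo2* and above every library of *Dis3l*. *Dis3l* (4.96 ± 0.560) and *Dis3l2* (3.74 ± 0.397) were lowest and their ranges overlapped, although *Dis3l* was the higher in 5 of 5 libraries. Without scaling to length, *Dis3l2* had the higher mean in control, at 1155 normalized counts against 939 for *Dis3l*. In *Dis3* cKO, *Dis3* had moved from the second to the fifth place, between *Eri1* (5.96 ± 0.251) and *Dis3l* (5.09 ± 0.321), and its range overlapped those of both.

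PROMPTs are nuclear exosome substrates, and the regions upstream of *Dis3l*, *Dis3l2*, *Eri1*, *Rexo2* and *Pnpt1* were among 30166 in which reads on the strand opposite to the gene were counted. No such region was counted for *Dis3* or *Isg20l2*. None of the 4 regions that passed the filter of a mean of 3 counts per library was called by edgeR, while 1673 of 12345 tested regions (13.6%) were higher, and 0 of the 4 were called lower, against 0.0486% of regions. At an unadjusted p under 0.05, 1 of them was higher, against 21% of tested regions.

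That region, upstream of *Eri1* (chr8:35496197-35499196), had 20, 19, 18, 12 and 17 raw counts in control replicates 1 to 5 and 35, 39, 21, 21 and 12 in *Dis3* cKO. Of the *Dis3* cKO libraries 4 lay above every control library and 1 did not, with a log2 fold change of 0.83 ± 0.42 (unadjusted p = 0.0494, adjusted p = 0.233). With library sizes taken from the PROMPT counts it was 0.10 (adjusted p = 0.975). Total PROMPT counts ran from 116141 to 176069 in control and from 179199 to 256460 in *Dis3* cKO (exact permutation test, p = 0.00794). Scaling to these totals takes that difference between the groups out. Upstream of *Rexo2* (chr9:48480624-48483623), the raw counts were 3, 3, 4, 10 and 3 in control and 23, 10, 2, 7 and 10 in *Dis3* cKO. The groups overlapped, and the log2 fold change was 1.44 ± 0.74 (adjusted p = 0.236). It was 0.84 without *Dis3* cKO replicate 1.

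Upstream of *Dis3l2* (chr1:86700808-86703807), raw counts were 9, 8, 12, 5 and 12 in control and 16, 19, 11, 10 and 21 in *Dis3* cKO, with a log2 fold change of 1.01 ± 0.55 (adjusted p = 0.293). After normalization the lowest *Dis3* cKO library, at 11.08, and the highest control library, at 11.03, were nearly equal. The share of all tested regions whose groups do not overlap was not determined. Upstream of *Dis3l* (chr9:64341289-64344288), raw counts of 13 to 39 in control and 14 to 34 in *Dis3* cKO covered the same span, and the log2 fold change was 0.24 ± 0.42 (adjusted p = 0.861). The median over all tested PROMPTs was 0.64. The region of *Pnpt1* had 0 to 5 counts and was not tested. At these depths a change of the size of that median could not be told from 0 for any of the 4 regions.

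The machinery around the members was read from 5 lists of 63 genes, of which 61 were tested. By edgeR 0 of the 61 were called higher and 3 lower (4.92%), against 4.42% and 3.48% of all tested genes, and at an unadjusted p under 0.05 there were 4 higher (6.56%) and 12 lower (19.7%), against 11.8% and 12.1% of all tested genes. DESeq2 called 1 higher and 6 lower, against 7.13% and 5.25% of all tested genes. The median log2 fold change of the lists was -0.10 beside -0.01 for all tested genes. By edgeR no gene was called in the lists of other 3′ exonucleases (12 tested), deadenylases (12 tested), and 5′ exonucleases with decapping factors (9 tested). Their medians were -0.04, -0.06 and -0.10. DESeq2 called 1 gene in each, *Pnldc1* (-0.58, adjusted p = 0.0257), *Pan3* (0.20, adjusted p = 0.0138) and *Dxo* (-0.24, adjusted p = 0.0384).

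Of the 13 genes of the exosome ring, cap and nuclear partners, 12 were tested and 2 were lower, with a list median of -0.17. *Exosc8*, a subunit of the ring, had 2638, 3041, 2454, 2678 and 2600 normalized counts in control replicates 1 to 5, and 2142, 2177, 2191, 2213 and 1986 in *Dis3* cKO. The lowest control library stood above the highest *Dis3* cKO library. Its log2 fold change was -0.32 ± 0.07 (adjusted p = 0.0111), and the call held in 10 of 10 fits that left out 1 library.

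*C1d*, a cofactor of the nuclear exosome, had 716, 738, 629, 874 and 793 counts in control and 521, 580, 479, 671 and 566 in *Dis3* cKO. The groups overlapped at control replicate 3 and *Dis3* cKO replicate 4, and the log2 fold change was -0.41 ± 0.11 (adjusted p = 0.0346). This call was lost in 8 of 10 fits that left out 1 library, with adjusted p from 0.0614 to 0.083. Of these fits, it held without control replicate 3 (0.0218) or *Dis3* cKO replicate 4 (0.0187). By edgeR it also held within replicates 1 to 3 (adjusted p = 0.0408) and within replicates 4 and 5 (0.0129). It held with the set of libraries as a term (0.00385) and by DESeq2 (0.00993), but not with a trend over gene length removed. The gene for EXOSC10, the other nuclear exosome nuclease, had a log2 fold change of -0.06 ± 0.06 and adjusted p = 0.638, and is named here after its value was seen.

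*Lin28b* was the one gene called among 16 partners of the paralogs and other members, whose list median was -0.07. LIN28B binds *let-7* precursors, and uridylated precursors of this kind are substrates of DIS3L2. *Lin28b* had 291, 274, 232, 283 and 301 normalized counts in control replicates 1 to 5 and 238, 183, 177, 186 and 146 in *Dis3* cKO. Only *Dis3* cKO replicate 1 reached into the control range, and the log2 fold change was -0.57 ± 0.14 (adjusted p = 0.0219). The call was lost without control replicate 1 (adjusted p = 0.0562), 2 (0.0506) or 5 (0.0544) and without *Dis3* cKO replicate 2 (0.0508) or 5 (0.0516). By edgeR it held with the set of libraries as a term (adjusted p = 0.00875) and within replicates 4 and 5 (0.00331), but not within replicates 1 to 3. DESeq2 also made the call (adjusted p = 0.00175). *Lin28b* is known from early germ cells, and summed germ cell markers fell in the same libraries, from 22480 to 28270 in control to 14970 to 20490 in *Dis3* cKO. The part of that shift in the changes of *Lin28b*, *C1d* and *Exosc8* was not tested.

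**Figure D4:**
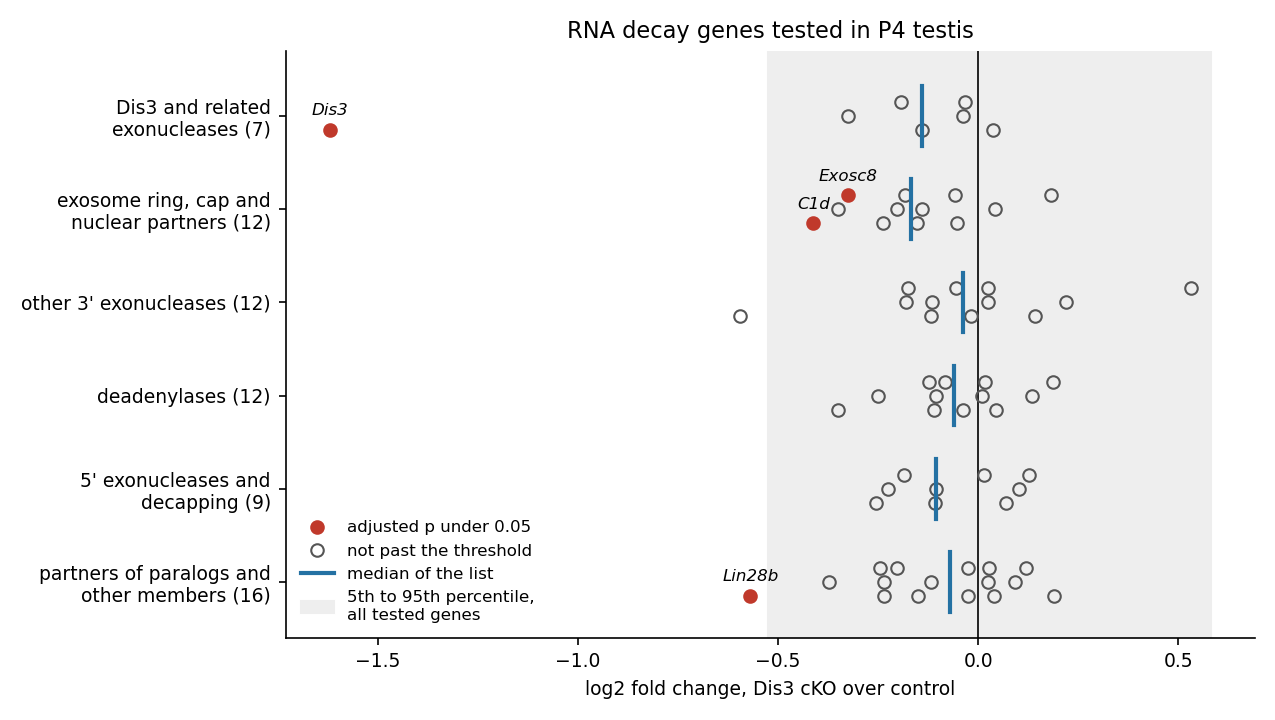
Log2 fold change (*Dis3* cKO over control) of every tested gene in the list of 7 exonucleases and in the 5 lists around them, with the number tested in brackets. Filled red points passed the threshold of an adjusted p under 0.05, open points did not, blue bars are list medians, and the grey band is the 5th to 95th percentile of all tested genes. All 4 red points, *Dis3*, *Exosc8*, *C1d* and *Lin28b*, lie left of 0.

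The genotype effect on some partners depended on the set of libraries. The interaction passed the threshold in 5 of the 61 list genes (8.20%), against 4.58% of all tested genes, and in none of the 7 members. *Mtrex*, which encodes the helicase MTR4 that feeds RNA to the nuclear exosome, differed most, and was named after its values were seen. It had 5924, 5983, 6063, 10400 and 10290 normalized counts in control replicates 1 to 5, and 10270, 8641, 8159, 8942 and 7872 in *Dis3* cKO. Control replicates 1 to 3 were the lowest of all 10 libraries and control replicates 4 and 5 the highest, so *Mtrex* was higher in *Dis3* cKO within replicates 1 to 3 (log2 fold change 0.59 ± 0.08, adjusted p = 0.00169) and lower within replicates 4 and 5 (-0.29 ± 0.06, adjusted p = 0.00232). Of all tested genes, 4.8% were called higher within replicates 1 to 3 and 11.7% lower within replicates 4 and 5. The interaction had adjusted p = 0.000242, and the value over all libraries was 0.18 ± 0.16.

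**Figure D5:**
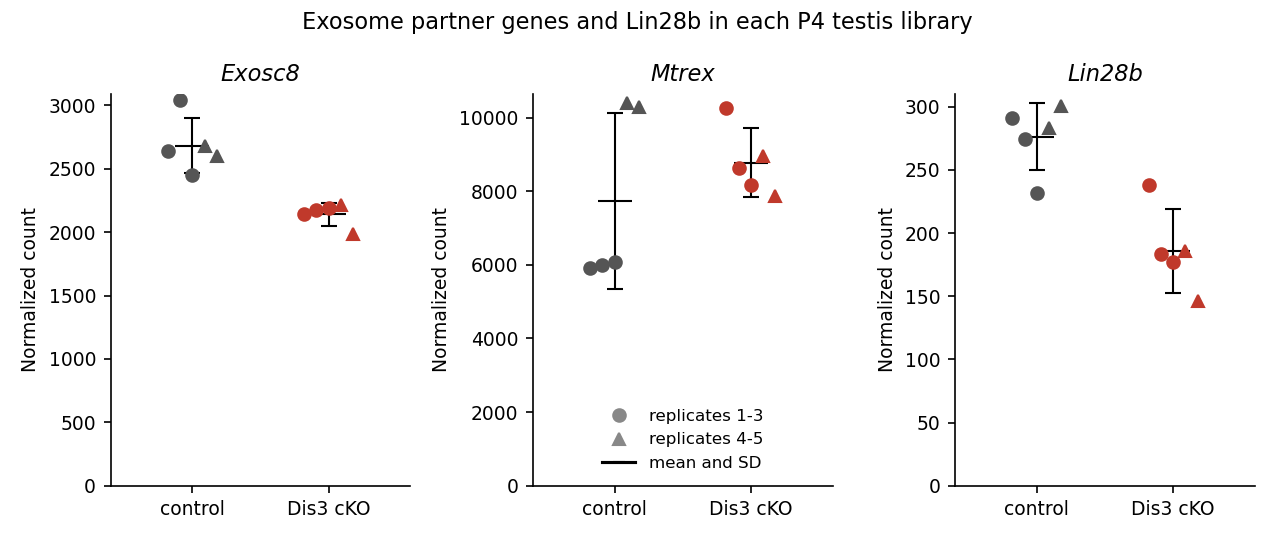
Normalized counts of *Exosc8*, *Mtrex* and *Lin28b* in each library, drawn as circles (replicates 1 to 3) or triangles (replicates 4 and 5) beside the mean and SD of 5 libraries. *Exosc8* separates the groups, *Lin28b* nearly does, and the control libraries of *Mtrex* form a low set, at 5924 to 6063, and a high set, at 10290 and 10400.

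Both list genes that were not tested had 0 counts in all 10 libraries. In the counted annotation, 100% of the exonic bases of *Exosc6*, a ring subunit, are shared with *Aars1* on the same strand, and 100% of those of *Trex1* with *Atrip*. These zeros therefore say nothing about the level of either transcript, and the ring was read here without *Exosc6*.

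The genes whose profile over the 10 libraries was nearest to that of *Dis3* were sought among 14751 other tested genes whose mean reached 50 normalized counts. Likeness was the root mean square difference of log2 CPM after each gene was centred on its control mean. *Bst2*, an interferon-inducible membrane protein, was nearest, at 0.239. It had 1482, 1502, 1547, 1874 and 1839 normalized counts in control replicates 1 to 5 and 554, 549, 801, 596 and 573 in *Dis3* cKO, which makes a log2 fold change of -1.42 ± 0.11. As for *Dis3*, control replicates 4 and 5 were the highest and no *Dis3* cKO library reached a control library. *Bst2* was chosen for this likeness. Among *Dis3* cKO libraries, replicate 3 was the highest for *Bst2*, whereas replicates 4 and 5 were the highest for *Dis3*.

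The next were *Cbln2*, a secreted protein of synapses (0.292), ENSMUSG00000034555.14, annotated as *Tex16* (0.313), *Lpl*, the lipoprotein lipase (0.389), and *Dmrtb1*, a transcription factor of spermatogonia (0.393). Their log2 fold changes were -1.38, -1.31, -2.09 and -1.17. Among the members, *Pnpt1* was the nearest to *Dis3* at 0.957 (rank 1283 of 14751) and *Dis3l* the farthest at 1.18 (rank 8286).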

How the data were processed

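RNA from both testes of 1 mouse made each library. Random and poly(T) primers were used, libraries were stranded, and AnyDeplete removed unwanted transcripts. Cutadapt, HISAT2 and featureCounts served the authors for trimming, alignment and counting. The deposited tables hold the authors' raw counts, per gene on the sense strand and per PROMPT region on the opposite strand. Their headers name featureCounts 1.6.4 and GENCODE M18 (GRCm38), whereas the methods name GRCm39, so coordinates are those of the tables. All columns of counts were used. GENCODE M39 gave symbols for 50129 of 54232 gene IDs.

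In R 4.3.3, genes kept by filterByExpr (minimum count of 10) were normalized by TMM and tested with edgeR 4.0.16 (quasi-likelihood, *Dis3* cKO against control, adjusted p under 0.05 by Benjamini-Hochberg over all genes, two-sided). DESeq2 1.42.0 was an alternative. PROMPTs used the library sizes of the gene counts. The procedure was tested on simulated counts without sets of libraries, so that test does not cover the split between the sets. For the genes, the spread between libraries limits precision more than counting does. The common biological coefficient of variation was 0.172 in the fit without a term for the sets. It therefore holds the split between the sets as well as the spread between mice. The PROMPTs of the members held at most 39 raw counts per library, so counting error is large there.

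The members and lists were chosen with earlier results of these data known. Named are all members, the list genes that passed the threshold (at most 6 per list) and the 5 genes nearest to *Dis3*; *Exosc10*, *Pan3*, *Pnldc1*, *Dxo*, *Mtrex*, *Exosc6*, *Trex1* and genes with an interaction were named after their values were seen. The sets of libraries come from the counts and are not a batch that the labels name.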

Additional observations from a re-analysis of the deposited data

Results flagged for a closer look

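The antisense PROMPT upstream of *Rexo2* had 1 outlying control library. Control replicate 4 had 9.59 normalized counts, against 2.76 to 3.36 in the other control libraries, and its gap to the nearest of them was 0.912 of the range of the group, above the critical value of 0.71 of Dixon's test. Each group of each member gene and of each member's PROMPT region was checked in this way. Chance flags about 1 group in 20, and the count rests on 10 raw reads.

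The genotype effect on 5 list genes differed between replicates 1 to 3 and replicates 4 and 5 by edgeR's interaction test. The adjusted p was 0.000242 for *Mtrex*, 0.0401 for *Lin28a*, 0.0404 for *Parn*, 0.0434 for *Exosc3* and 0.0475 for *Slbp*. The log2 fold changes within replicates 1 to 3 and within replicates 4 and 5 were 0.59 and -0.29 for *Mtrex*, -0.17 and -0.81 for *Lin28a*, 0.06 and -0.33 for *Parn*, 0.03 and -0.40 for *Exosc3*, and -0.01 and -0.37 for *Slbp*. All 5 were lower in *Dis3* cKO within replicates 4 and 5.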

How the results depend on the processing

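*Dis3* kept its direction and call under all 18 alternatives, with log2 fold changes from -1.67 to -1.58, and *Eri1* kept its direction, from -0.21 to -0.12, with adjusted p from 0.0502 to 0.344. Small values changed sign in 7 cases, none of them called. *Dis3l* was -0.025 with replicates 4 and 5 only and from -0.019 to 0.076 when 1 library was left out. *Dis3l2* was 0.073 with replicates 1 to 3 only and from -0.074 to 0.026 when 1 library was left out. *Isg20l2* was 0.00028 with replicates 1 to 3 only and 0.021 with the trend over gene length removed, and the PROMPT of *Dis3l* was -0.43 with PROMPT library sizes. That setting also lowered the PROMPTs of *Eri1* from 0.83 to 0.10, of *Dis3l2* from 1.01 to 0.29 and of *Rexo2* from 1.44 to 0.59. PROMPT library sizes take out the higher PROMPT totals of the *Dis3* cKO libraries. Without *Dis3* cKO replicate 1 the *Rexo2* PROMPT was 0.84, and *Pnpt1* was -0.19 without control replicate 4.

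The replicate numbers were not taken as pairs, since the correlation of same-numbered deviations was over 0.1 in 3 of 5 pairs only (0.0826 to 0.183). It was 0.0183 to 0.16 between different numbers of the same set, and -0.178 to -0.0775 in the 12 pairs from different sets. The main fit had no term for the sets. With the replicate block, *Pnpt1* was lower (-0.30, adjusted p = 0.0315), as it was with the set of libraries as a term (-0.29) and with replicates 4 and 5 only (-0.50), where *Rexo2* was too (-0.34). The block changed no other member's call. Genes called higher and lower were 885 and 698 as reported, 1489 and 1337 with the block, 1772 and 1669 with the set as a term, 2361 and 2360 with replicates 4 and 5 only, and 1430 and 1052 by DESeq2. Leaving out 1 library gave 516 to 1173 higher and 366 to 806 lower. More than 1.5 times fewer genes were higher without control replicate 1 (521) or 2 (516) or *Dis3* cKO replicate 2 (557), and lower without control replicate 1 (382), 2 (371), 4 (398) or 5 (399) or *Dis3* cKO replicate 2 (429) or 5 (366).

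Over the 5 lists, with 61 genes tested as reported, 0 higher and 3 lower became 3 and 6 with the block. They became 2 and 11 with the set as a term, 3 and 21 with replicates 4 and 5 only, and 1 and 6 by DESeq2. Of all tested genes, 8.33% were lower with the set as a term and 11.7% with replicates 4 and 5 only. By DESeq2 7.13% were higher and 5.25% lower, and 4.8% were higher with replicates 1 to 3 only. There was 1 higher (*Mtrex*) with replicates 1 to 3 only, and 5 lower with no filter. Leaving out 1 library gave 0 to 1 higher and 1 to 4 lower, with 1 lower without control replicate 1, 2 or 5 or *Dis3* cKO replicate 5. The causes were not tested.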
